A study of Homo sapiens with 20 samples.

Results

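The regions described here are gene promoters at which BMAL1 or HIF2α was recovered from chromatin and which carry the canonical E-box, the palindromic hexamer CACGTG. Peaks from 4 lists were merged wherever they overlapped by at least 1 bp, and each merged region took the summit of its peak with the highest −log10 p. A region was kept when that summit lay within 1 kb of an annotated transcript start and a whole E-box lay within 100 bp of the summit. Of 8280 merged regions, 3280 were promoter regions by this measure and 267 of them carried the E-box, or 8.14% of promoter regions (95% interval 7.25 to 9.13%). The other 3013 promoter regions and 241 E-box regions farther from a start served for comparison.

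The study profiled chromatin in A498, an established cell line that comes from a human clear cell renal cell carcinoma (ccRCC), by CUT&RUN, in which a nuclease tethered to an antibody releases the DNA beside the bound protein for sequencing. Cells were infected with lentivirus carrying a scrambled control shRNA (shCNT, genotype given as WT) or an shRNA against BMAL1 (shBMAL1, genotype given as BMAL1 knockdown), and they were used as infected populations of 1 line rather than as clones. By the labels 20 libraries were made, with 4 for each combination of shRNA with the BMAL1 or the HIF2α antibody and 2 for each shRNA with non-specific IgG. The peak lists analysed are 1 for each of the 4 antibody and shRNA groups, so no list has a replicate, differences between lists could not be set against replicate spread and no p-value is given. Intervals are 95% Wilson intervals for shares and Newcombe intervals for differences of shares. They cover counting error over regions alone, and copies made by PCR add no independent evidence.

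BMAL1 is the basic helix-loop-helix PAS protein that pairs with CLOCK, binds E-boxes and drives the negative limb of the circadian clock, the PER, CRY and REV-ERB genes, as well as output regulators such as DBP and TEF. HIF2α, encoded by EPAS1, belongs to the same protein family, accumulates in ccRCC when VHL is lost, and pairs with ARNT at the hypoxia response element (HRE), whose core RCGTG (R stands for A or G) lies within every CACGTG. The E-box is also read by USF, MAX-containing and MiT/TFE factors, so the hexamer alone does not name the protein that sits on it.

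The sequences below carry the results that follow. They were read from GRCh37 on the strand of the nearest start, run 5′ to 3′, and show the E-box in capitals. The first set gives promoters of clock genes. PER1 lies at chr17:8060004-8060083 on the minus strand and TEF at chr22:41777716-41777795 on the plus strand. The pair of PER3 sites lies at chr1:7843915-7843944 and chr1:7843969-7843998 on the plus strand. DBP lies at chr19:49137806-49137835 on the minus strand. The pair of sites beside NR1D2 lies at chr3:23987445-23987474 and chr3:23987495-23987524, written on the minus strand of the neighbouring gene NKIRAS1.
PER1: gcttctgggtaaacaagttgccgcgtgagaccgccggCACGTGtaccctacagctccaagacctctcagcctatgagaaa
TEF: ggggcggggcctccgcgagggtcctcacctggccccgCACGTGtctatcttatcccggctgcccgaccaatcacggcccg
PER3, first E-box: ccgcccgcctctCACGTGgaggttgggccg
PER3, second E-box: gggtcccgccccCACGTGgctggcagcttc
DBP: agcaggcgtcagCACGTGactcggccctga
NR1D2, E-box of lower coordinate: gccgagcggcctCACGTGtccccgcccgcc
NR1D2, E-box of higher coordinate: cgcccccgccccCACGTGtccctgcggccc

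The second set gives members that differ in the lists they occur in. LDHA, at chr11:18415888-18415967 and chr11:18415986-18416065 on the plus strand, was strongest with the HIF2α antibody. EIF4A3, at chr17:78121006-78121085 on the minus strand, occurred in HIF2α lists only. CDK4, at chr12:58146247-58146326 on the minus strand, occurred in the shCNT BMAL1 list alone and shows 2 of its 3 E-boxes. RELL1, at chr4:37688280-37688359 on the minus strand, occurred in all 4 lists. SH2B3, at chr12:111843431-111843510 on the plus strand, stood higher in the shBMAL1 list than in the shCNT list. SNX8, at chr7:2354231-2354310 on the minus strand, occurred in the shBMAL1 BMAL1 list alone.
LDHA, first E-box: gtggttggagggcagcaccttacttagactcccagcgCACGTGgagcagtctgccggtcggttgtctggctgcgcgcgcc
LDHA, second E-box: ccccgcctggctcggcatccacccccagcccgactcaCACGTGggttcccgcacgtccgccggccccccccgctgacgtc
EIF4A3: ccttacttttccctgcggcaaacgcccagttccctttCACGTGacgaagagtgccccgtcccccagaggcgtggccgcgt
CDK4: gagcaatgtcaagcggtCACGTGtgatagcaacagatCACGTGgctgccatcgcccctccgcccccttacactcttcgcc
RELL1: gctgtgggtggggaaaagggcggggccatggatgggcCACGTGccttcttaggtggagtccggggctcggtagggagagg
SH2B3: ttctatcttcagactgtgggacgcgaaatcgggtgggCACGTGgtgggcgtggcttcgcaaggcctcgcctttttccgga
SNX8: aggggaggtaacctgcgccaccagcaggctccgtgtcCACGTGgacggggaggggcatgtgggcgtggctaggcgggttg

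The lists behind these regions differ in depth, which bears on every comparison between shRNAs. The number of called peaks ran from 2350 in shCNT BMAL1 and 2361 in shCNT HIF2α to 3199 in shBMAL1 HIF2α and 4261 in shBMAL1 BMAL1. The pileup, which counts the fragments that overlap a summit, was recovered as a whole number from the fold enrichment and p-value of each peak. Its background over the whole genome came to 0.168 for shCNT BMAL1 and 0.0839 for shBMAL1 BMAL1 (fragments per position), a ratio of 0.50. For the HIF2α antibody it was 0.209 in shCNT and 0.109 in shBMAL1, a ratio of 0.524. The files analysed hold no measure of BMAL1 protein or RNA, so the knockdown could not be checked and shBMAL1 below names the label. Values within a list are also given as percentiles of −log10 p among all peaks of that list.

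Promoters with an E-box were found most often with the BMAL1 antibody in shCNT cells. The shCNT BMAL1 list held 147 of the 267 members (55.1%, interval 49.1 to 60.9%), the shBMAL1 BMAL1 list 105 (39.3%, 33.7 to 45.3%), the shCNT HIF2α list 83 (31.1%, 25.8 to 36.9%) and the shBMAL1 HIF2α list 89 (33.3%, 28.0 to 39.2%). In the same order, the lists held 28.3%, 51.3%, 28.3% and 38.4% of all merged regions. Against promoter regions without the E-box, the members' share was 21.3 points higher in shCNT BMAL1 (interval 15.0 to 27.4) and 11.8 points lower in shBMAL1 BMAL1 (interval −17.7 to −5.55). In the HIF2α lists the differences were −2.20 points for shCNT (interval −7.72 to 3.82) and −2.91 points for shBMAL1 (interval −8.56 to 3.19), and both intervals included 0. With a −log10 p of at least 8 the shCNT HIF2α difference was −8.04 points (interval −14.4 to −0.736) and with a pileup of at least 5 it was −9.05 (−15.1 to −2.40), while shBMAL1 HIF2α gave −6.41 (−12.1 to −0.0874) with lists of equal length. Compared with distal E-box regions, of which 41.9% were in shCNT BMAL1, the members' share in that list was 13.1 points higher (interval 4.44 to 21.6), and 11.6 points with an interval that included 0 (−1.36 to 24.0) when the E-box had to lie within 50 bp. In the other 3 lists the intervals of that difference included 0 with the 100 bp window and all peaks.

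**Figure D1:**
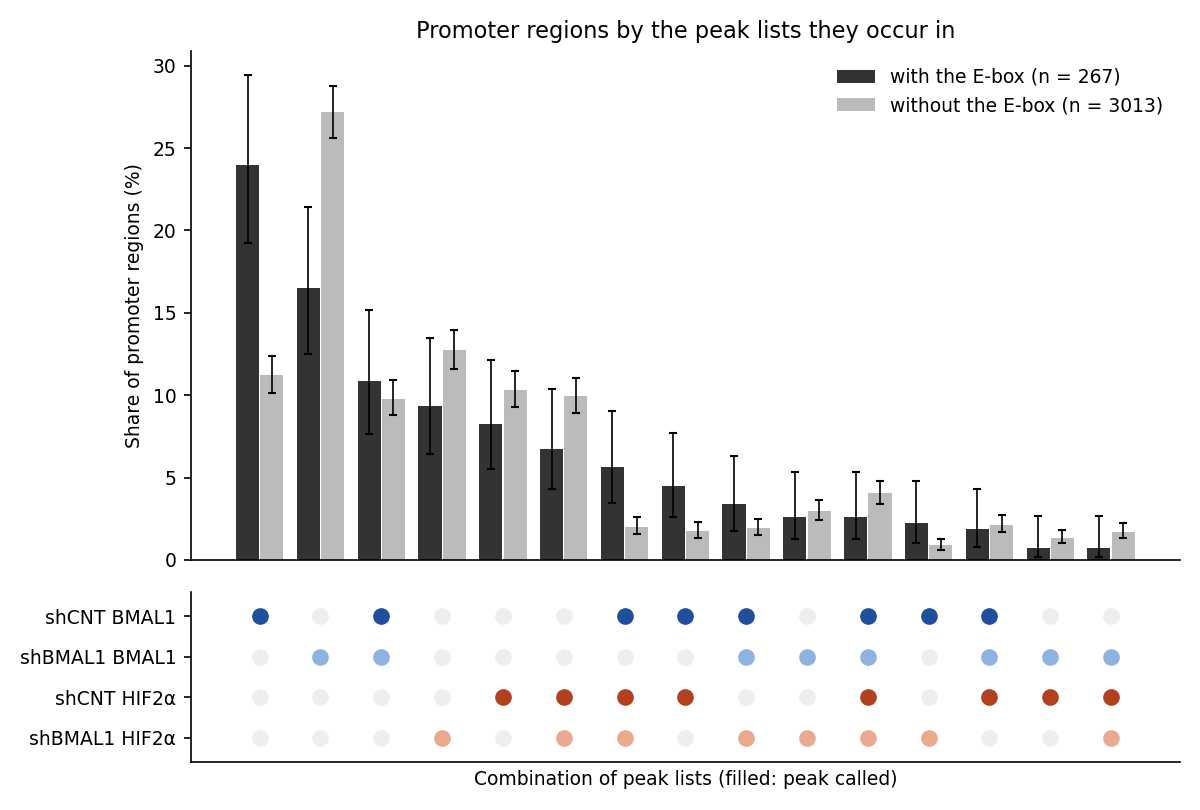
Share of promoter regions in each combination of the 4 peak lists, for the 267 regions with the E-box (dark bars) and the 3013 without it (grey bars), with 95% Wilson intervals. Filled dots mark the lists in which a peak was called. Regions in shCNT BMAL1 alone made up 24.0% of E-box promoters and 11.2% of the others, while regions in shBMAL1 BMAL1 alone made up 16.5% and 27.2%.

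Most members were called in 1 list only, 155 of 267 (58.1%), against 61.5% of promoter regions without the E-box. The largest class was the shCNT BMAL1 list alone, with 64 members, followed by shBMAL1 BMAL1 alone with 44 and both BMAL1 lists without HIF2α with 29. A further 25 members were found in shBMAL1 HIF2α alone, 22 in shCNT HIF2α alone and 18 in both HIF2α lists without BMAL1. Both antibodies recovered 65 members (24.3%), a share 5.53 points above that of other promoter regions (interval 0.554 to 11.2). HIF2α lists alone held another 65 members, a share 8.65 points below that of other promoter regions (interval −13.7 to −2.91). All 4 lists held 7 members (2.62%), against 4.05% of other promoter regions and 2.90% of all merged regions, a difference from the former of −1.43 points (interval −2.98 to 1.34). They lay at PER1, RELL1, BLOC1S3, ZBTB37, KHSRP, POLR1G and an uncharacterised long non-coding RNA. The rule asks for an E-box within 100 bp of the region's summit, so it need not lie inside each list's peak. Only at RELL1 and KHSRP did all 4 peaks span the E-box. The shBMAL1 BMAL1 peak missed it at BLOC1S3, ZBTB37 and the long non-coding RNA, and the shBMAL1 HIF2α peak missed it at PER1. At POLR1G it lay outside every peak. POLR1G and KHSRP, the former named after its values were seen, encode an RNA polymerase I subunit and an RNA-binding splicing regulator.

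Members lay toward the strong end of the shCNT BMAL1 list. The 147 members there had a median percentile of 66.0 (quartiles 35.3 and 89.2), and the 1018 other promoter regions of the list had a median of 52.7 (27.6 and 78.4). Peaks above the 90th percentile were 20.4% of members (interval 14.7 to 27.6%) and 12% of other promoter regions (interval 10.1 to 14.1%). Under shBMAL1 the BMAL1 medians were 61.3 for 105 members and 56.9 for the others, and peaks above the 90th percentile were 13.3% and 15.0%. In the HIF2α lists the members lay slightly lower, with medians of 43.4 against 49.1 in shCNT and 46.0 against 52.1 in shBMAL1, where the quartiles of both sets largely overlapped.

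Since a merged region takes its summit from whichever list is strongest, the E-box was also counted around each list's own promoter summits. It lay within 100 bp of 13.6% of the 1166 shCNT BMAL1 promoter summits (interval 11.8 to 15.7%), rising to 19.5% in the strongest quartile of that list (interval 15.4 to 24.3%). In shBMAL1 BMAL1 it lay at 6.23% of 1653 summits (interval 5.16 to 7.5%), with 6.95% in the strongest quartile. The HIF2α lists had 7.92% of 1098 in shCNT and 7.87% of 1194 in shBMAL1. Windows of the same 201 bp centred on all 110162 annotated starts held an E-box in 4.40%, although these windows are not centred on summits. Each share comes from 1 list, the lists differ in length and depth, and the part of these in the difference between shCNT and shBMAL1 was not tested.

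**Figure D2:**
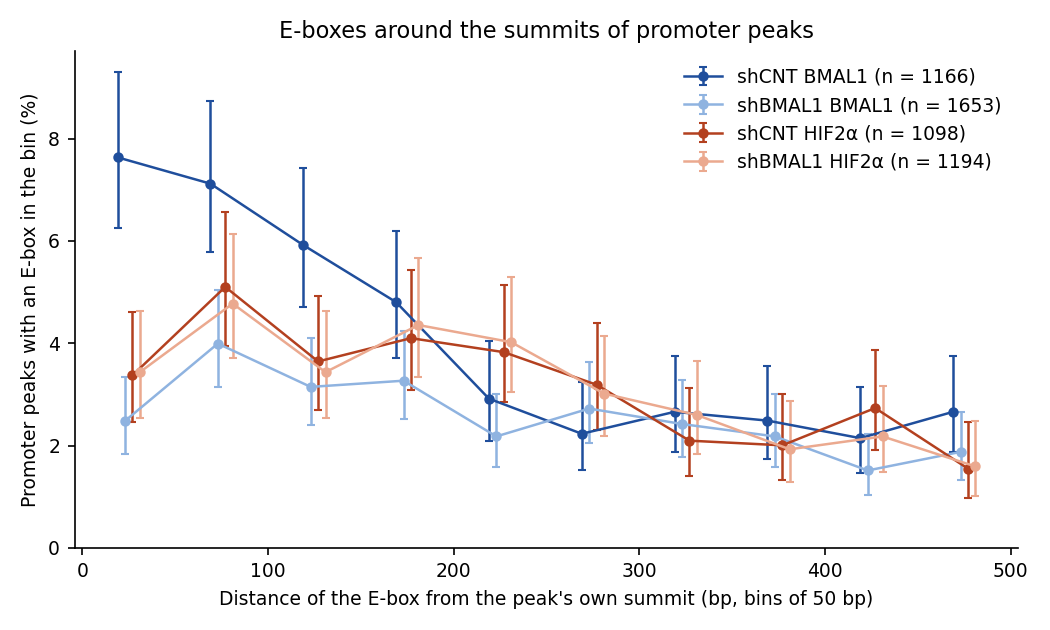
Share of promoter peaks with an E-box at each distance from the peak's own summit, in bins of 50 bp on both sides together, for the 4 peak lists with 95% Wilson intervals. In shCNT BMAL1 the share fell from 7.63% within the first bin to 2.92% at 200 to 249 bp, whereas shBMAL1 BMAL1 had 2.48% in the first bin and its highest share, 3.99%, at 50 to 99 bp.

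The position of the E-box relative to the summit was then counted in bins of distance. In shCNT BMAL1 it was densest in the bin nearest the summit, at 7.63% of peaks (interval 6.24 to 9.30%), and fell with distance to between 2.14% and 2.92% in the bins beyond 200 bp. In shBMAL1 BMAL1 the nearest bin held 2.48% (interval 1.83 to 3.35%), and the highest share was 3.99% (interval 3.15 to 5.05%) at 50 to 99 bp, with 1.51% (interval 1.03 to 2.22%) at 400 to 449 bp. The HIF2α lists had 3.37% and 3.43% in the nearest bin and their highest shares, 5.10% and 4.77%, at 50 to 99 bp. Over the 267 members the median distance from the region's summit to the nearest E-box was 55 bp, and 58 members had it within 20 bp.

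Members were kept under shBMAL1 less often than other promoters in the BMAL1 lists. Of the 147 members in shCNT BMAL1, 50 also held a shBMAL1 BMAL1 peak (34.0%, interval 26.8 to 42%), whereas 47.7% of all shCNT BMAL1 regions and 539 of 1018 promoter regions without the E-box did (52.9%, 49.9 to 56.0%). The difference from the other promoters was −18.9 points (interval −26.7 to −10.4). Distal E-box regions were kept in 34.7% of cases, a difference of −0.640 points (interval −12.7 to 11.1), so promoter and distal E-box regions were not told apart in this respect. Read in the other direction, 50 of the 105 members in shBMAL1 BMAL1 had a shCNT BMAL1 peak (47.6%), against 26.3% of all shBMAL1 BMAL1 regions and 35.0% of other promoter regions. That difference was 12.6 points (interval 3.01 to 22.4).

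Membership itself depends on both lists, because the summit comes from the stronger peak. Regions were therefore also classed at the summit of their shCNT BMAL1 peak alone, an alternative chosen after seeing the data. Of 159 promoter regions with an E-box at that summit 56 were kept (35.2%, interval 28.2 to 42.9%), against 531 of 1004 without it (52.9%, 49.8 to 56.0%), a difference of −17.7 points (interval −25.3 to −9.38).

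**Figure D3:**
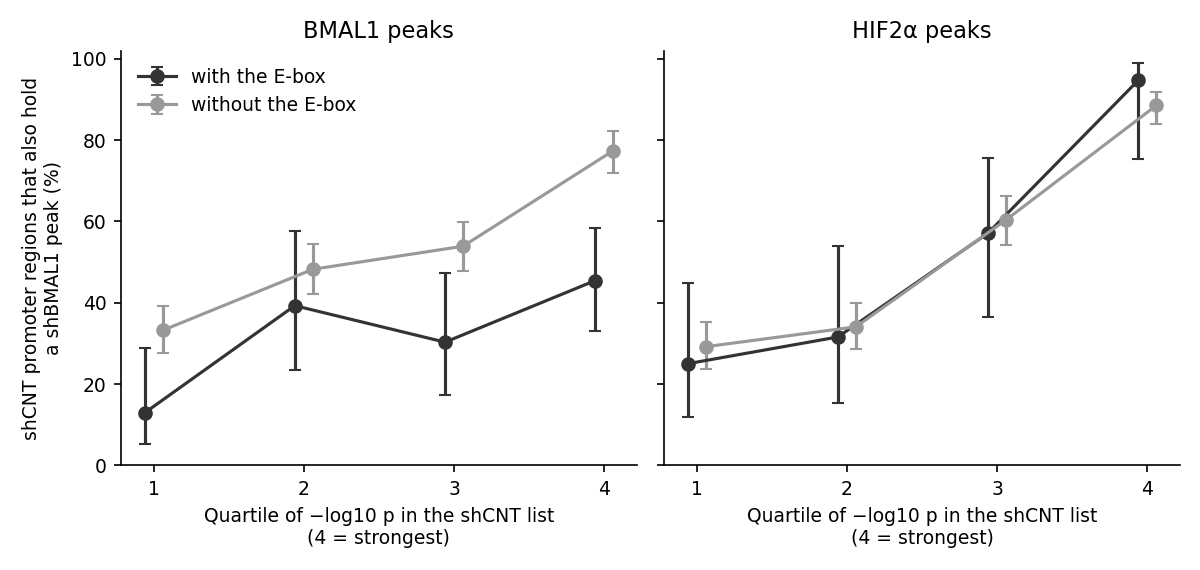
Share of shCNT promoter regions that also held a shBMAL1 peak of the same antibody, by quartile of −log10 p in the shCNT list, for regions with the E-box (dark) and without it (grey), with 95% Wilson intervals. For BMAL1 the E-box regions lay below the others in all 4 quartiles, by 32.0 points in the strongest, and for HIF2α the intervals of both sets overlapped in each quartile.

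Members and other promoters were also compared at like strength of the shCNT peak. In the top quartile of shCNT BMAL1, 25 of 55 members were kept (45.5%, interval 33.0 to 58.5%) against 192 of 248 other promoter regions (77.4%, 71.8 to 82.2%), a difference of −32.0 points (interval −45.3 to −17.8). In the lowest quartile 4 of 31 members were kept (12.9%) against 33.2% of the others, a difference of −20.3 points (interval −30.1 to −3.45). The third quartile gave −23.6 points (interval −37.9 to −5.50), and the second gave −8.95 points with an interval that included 0 (−25.8 to 10.3). The intervals of the 4 quartiles overlap, and no test compared them. Classed at the shCNT summit alone, the difference was −31.0 points in the top quartile (interval −44.2 to −17.4), −24.3 in the third (−37.6 to −7.36), −11.6 in the second (−27.6 to 7.28) and −16.8 in the lowest (−27.4 to 0.224). The shBMAL1 list has the lower background, so the shares were also taken among shCNT peaks of higher pileup. Among shCNT peaks whose pileup, scaled by the ratio of backgrounds, still reached the smallest pileup called in shBMAL1 (3 fragments), 49 of 115 members were kept (42.6%) against 430 of 701 other promoter regions (61.3%), a difference of −18.7 points (interval −28.1 to −8.89). Of the 97 members not called under shBMAL1, 66 had such a pileup, as had 271 of 479 such other promoter regions and 47 of 66 such distal E-box regions. Reaching 3 fragments does not ensure a call, as the median pileup of shBMAL1 BMAL1 peaks was 5. The part of depth in these shares was not tested.

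With the HIF2α antibody the difference between members and other promoters had an interval that included 0. Of 83 members in shCNT HIF2α, 42 also held a shBMAL1 HIF2α peak (50.6%, interval 40.1 to 61.1%), against 55.8% of all shCNT HIF2α regions and 53.2% of the other promoter regions. The difference was −2.64 points (interval −13.6 to 8.30), and 5.93 points (interval −5.01 to 16.2) when regions were classed at the shCNT HIF2α summit alone. In the strongest quartile 18 of 19 members were kept, against 224 of 253 other promoter regions (88.5%), a difference of 6.20 points (interval −13.5 to 12.5). In the other direction 42 of 89 members in shBMAL1 HIF2α had a shCNT HIF2α peak (47.2%), against 41.1% of all shBMAL1 HIF2α regions and 48.9% of other promoter regions. The difference from other promoter regions was −1.71 points (interval −12.2 to 8.98). The difference between the antibodies in the effect of the E-box was not itself tested.

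At members called in both BMAL1 lists the scaled signal under shBMAL1 was also lower relative to other promoters. After scaling by each list's background, the log2 difference of pileup, shBMAL1 minus shCNT, had a median of 0.50 over the 50 members (quartiles 0.02 and 1.00) and 1.00 over the 539 other promoter regions (0.68 and 1.49). It was below 0 at 13 of 50 members (26.0%, interval 15.9 to 39.6%) and at 42 of 539 others (7.79%, 5.82 to 10.4%). A region enters this comparison only when it was called in both lists, which removes low values from the shallower list, so the sign of the median carries no direction. A shCNT peak whose scaled pileup is under 3 fragments cannot give a value below 0. The scaled pileup reached 3 at 49 of the 50 members and at 430 of the 539 others. This limit thus acts unequally on both sets, and its part in their difference was not tested. The members' rule adds to this, since 27 of the 50 took their summit from shCNT BMAL1, 20 from shBMAL1 BMAL1 and 3 from a HIF2α list, and the E-box nearest that summit lay inside both BMAL1 peaks at 24. Classed at the shCNT BMAL1 summit alone, the medians were 0.50 over 56 regions with the E-box and 1.00 over 531 without it, and the difference was below 0 at 26.8% and 7.53%, 19.3 points apart (interval 9.1 to 32.2). The limit of 3 fragments applies to these values too. For HIF2α the medians were 0.45 over 42 members and 0.55 over 534 other promoter regions.

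**Figure D4:**
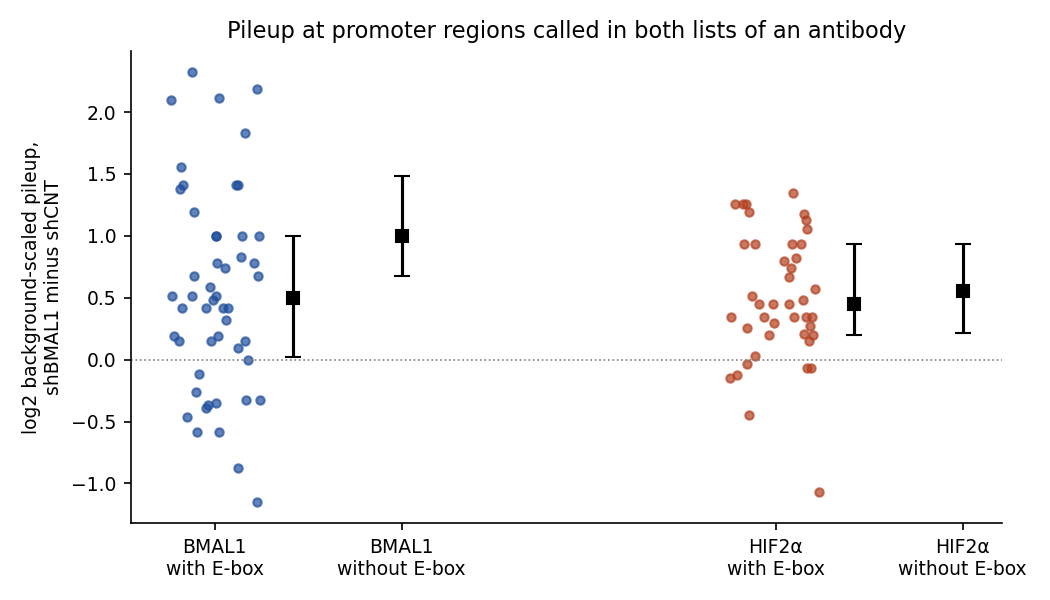
The log2 difference of background-scaled pileup, shBMAL1 minus shCNT, at promoter regions called in both lists of an antibody. Each point is an E-box promoter region (BMAL1, n = 50 and HIF2α, n = 42), and squares with bars give the median and quartiles of regions with and without the E-box, with medians of 0.50 and 1.00 for BMAL1 and 0.45 and 0.55 for HIF2α.

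Of the 13 members with a scaled BMAL1 difference below 0, TEF, PER1 and DBP belong to the clock list, whereas the region of CIART, the fourth clock region in both BMAL1 lists, had 0.41. At TEF, which encodes a PAR bZIP regulator of clock output, the pileup was 31 in shCNT BMAL1 and 7 in shBMAL1 BMAL1, with no HIF2α peak, a scaled log2 difference of −1.15. At PER1, which encodes a repressor of CLOCK and BMAL1, the BMAL1 antibody gave 84 in shCNT and 33 in shBMAL1 cells, and the HIF2α antibody gave 9 and 12. That PER1 peak had the highest −log10 p of any member, 175 in shCNT BMAL1, and a scaled log2 difference of −0.35. Its percentile was 99.6 and 99.5 in the BMAL1 lists. The shBMAL1 HIF2α peak at PER1 does not span the E-box. At DBP, another PAR bZIP regulator, the pileup was 10 and 4 in the BMAL1 lists (log2 difference −0.32). The shBMAL1 peak at DBP does not span the E-box, so its 4 fragments were counted beside the E-box. ERP29, which is in none of the 7 gene lists, had 12 and 4 (−0.59), and the long non-coding RNA LINC01431, named after its values were seen, had 11 and 3 (−0.87).

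Other strong members had values on both sides of 0. BLOC1S3, a subunit of the complex that builds lysosome-related organelles, had BMAL1 pileups of 21 in shCNT and 8 in shBMAL1 and HIF2α pileups of 7 and 5, a BMAL1 log2 difference of −0.39, with a shBMAL1 BMAL1 peak that does not span the E-box. KHSRP had 13, 6, 9 and 9 in the same order and a difference of −0.12. RELL1, a member of the RELT receptor family, had 17, 25, 8 and 5, a BMAL1 log2 difference of 1.56. The scaled HIF2α log2 differences were 0.45 at BLOC1S3, 0.93 at KHSRP and 0.25 at RELL1. A further 4 regions were named for their strength and take their summit from shBMAL1 BMAL1, so a higher value there is part of how they were chosen. SH2B3, an adaptor that restrains cytokine signalling, had 11 in shCNT and 25 in shBMAL1 (log2 difference 2.18). AFG3L2, a mitochondrial protease subunit, had 9 and 16 (1.83), TMEM102 had 6 and 13 (2.12) and GPR146, a receptor of the G protein-coupled class, had 7 and 15 (2.10). All 4 were picked among members of both BMAL1 lists without a HIF2α peak. The lack of a HIF2α peak at these 4 follows from that choice. At TMEM102 and GPR146 the shCNT BMAL1 peak does not span the E-box, so its fragments were counted beside the E-box.

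Some promoters with strong shCNT BMAL1 peaks had no shBMAL1 BMAL1 peak. At a second PER1 region (chromosome 17, 8055713 to 8056012), 159 bp from an alternative PER1 start, the pileup was 15 at percentile 97.3 in shCNT BMAL1 and no peak was called in the other 3 lists. MYO9A, which encodes an unconventional myosin, and USP36, a nucleolar deubiquitinase, had a pileup of 14 each in that list alone, and CDK4, the G1 cyclin-dependent kinase, had 10. The USP36 peak does not span the E-box. UBAP2L, a stress granule protein, had 13 in shCNT BMAL1 and 6 in shCNT HIF2α, with no peak in either shBMAL1 list. A missing call is not a pileup of 0, since the lists name peaks past the p-value limit only.

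In shBMAL1 lists only, 76 members were called (28.5%), 14.4 points below the share of other promoter regions (interval −19.8 to −8.46 for members minus others). They were led by SLC22A31, a solute carrier gene (pileup 28, percentile 99.6), SNX8, a sorting nexin (17, percentile 98.0), a long non-coding RNA beside FAM86FP (11) and TLE4, a Groucho-type corepressor (10), all from the BMAL1 antibody. The TLE4 peak does not span the E-box. PAIP2, a repressor of poly(A)-binding protein, had a pileup of 9 in shBMAL1 HIF2α alone. The median distance from summit to E-box was 61 bp over the 55 members of shBMAL1 BMAL1 that lacked a shCNT BMAL1 peak and 45 bp over the 97 members of shCNT BMAL1 that lacked a shBMAL1 BMAL1 peak.

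Several members carried more than 1 E-box in the window. There were 24 such members (8.99%), 21 with 2 E-boxes and 3 with 3, at CDK4, ERP29 and SLC4A2, whereas 2.07% of distal E-box regions had more than 1. Of 4848 annotated starts with an E-box in the same window 301 had more than 1 (6.21%), a difference from members of 2.78 points (interval −0.181 to 6.87). CDK4 had gaps of 14 and 47 bases between its E-boxes, ERP29, a chaperone-like protein of the endoplasmic reticulum, had 45 and 26, and SLC4A2, an anion exchanger, had 27 and 102. Of the 17 members with several E-boxes in shCNT BMAL1, 2 were kept under shBMAL1, at ERP29 and at PLD6, a mitochondrial phospholipase gene named after its values were seen, compared with 48 of 130 members with 1 E-box. Put the other way, 15.5% of the 97 lost members and 4.00% of the 50 kept members had more than 1 E-box, a difference of 11.5 points (interval 0.334 to 20.4) that rests on these 2 kept regions. The shBMAL1 BMAL1 peak at PLD6 does not span the E-box nearest the region's summit. ERP29 had pileups of 12, 4 and 3 in shCNT BMAL1, shBMAL1 BMAL1 and shBMAL1 HIF2α, the last in a peak that spans none of its E-boxes. CLOCK and BMAL1 are known to favour paired E-box-like elements at a short spacing. A second hexamer with at most 1 mismatch to CACGTG at 6 or 7 bases from the E-box was present at 8 members (3.00%), 7 of them in shCNT BMAL1, and at 1.66% of distal E-box regions.

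The bases next to the E-box resembled those of promoter E-boxes in general. Over 588 sides of 294 E-boxes, read 5′ to 3′ into the hexamer on each strand, the adjoining base was C on 35.0%, T on 27.7%, G on 23.6% and A on 13.6%. Around the 3428 E-boxes within 100 bp of any annotated start these shares were 33.8%, 29.2%, 22.0% and 15.0%. The dinucleotide GT, which gives the extended site GTCACGTG, was the most frequent at 16.2% of sides (interval 13.4 to 19.3%) against 14.6% at all starts. At distal E-boxes T adjoined 19.6% of sides and A 23.9%. The decamer gcCACGTGac was the most frequent at members, with 13 of 294 E-boxes, and ccCACGTGac followed with 11. Among lost members T adjoined 31.1% of 228 sides (interval 25.5 to 37.4%), and among kept members 22.6% of 106 sides (interval 15.7 to 31.5%), which overlap.

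Other motifs were counted on both strands of the same 201 bp windows. The HRE core outside any E-box was present at 55.4% of members and 56.1% of other promoter regions, against 32.6% of windows at all annotated starts. The Sp1 site GGGCGG was at 55.1% and 54.1% (31.3% of starts), and CCAAT at 28.5% and 33.4% (25.1% of starts). The AP-1 site TGASTCA (S stands for C or G) was at 10.1% of members and 6.17% of other promoter regions, a difference of 3.94 points (interval 0.736 to 8.22), with 2.96% at all starts. Distal E-box regions had AP-1 in 22.8% and the Sp1 site in 14.1%. Median GC content was 65.2% at members, 63.2% at other promoter regions and 52.7% at distal E-box regions, and the observed-to-expected CpG ratio was 0.788, 0.761 and 0.361.

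The HRE core and the Sp1 site differed between members of BMAL1 lists only and of HIF2α lists only. The HRE core outside the E-box was at 63.1% of the 65 members in HIF2α lists only and at 48.2% of the 137 in BMAL1 lists only, a difference of 14.9 points (interval 0.184 to 28.4). The Sp1 site was at 38.5% and 58.4%, a difference of −19.9 points (interval −33.4 to −5.17). The intervals for AP-1 (1.2 points, −6.39 to 11.3) and CCAAT (−10.0 points, −21.1 to 3.05) included 0. Median GC content moved with this contrast, 61.2% in HIF2α lists only and 67.2% in BMAL1 lists only, and its part in the motif shares was not tested. These are among 9 features compared, without adjustment for their number.

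The E-boxes themselves lay outside any transcript at 113 members (42.3%), in an intron at 71 (26.6%), in a UTR at 52 (19.5%), in an exon of a non-coding transcript at 21 and in a coding exon at 10. The summit lay a median of 137 bp from the nearest start (quartiles 60.0 and 260.5), the same median as other promoter regions. The nearest start was protein coding at 73.8% of members and belonged to a long non-coding RNA at 22.5%, and starts on both strands lay within 1 kb of 33.0%, against 77.0%, 19.4% and 31.3% of other promoter regions. At 98 members more than 1 gene had a start within 1 kb, so a gene name marks position and not regulation. The members just inside 1 kb lay 958 bp from a Y_RNA start, 924 bp from LINC02348 and 892 bp from TNIP1, and the E-box regions just outside lay 1055 bp from MIR3193, 1103 bp from SPAG9 and 1124 bp from SNTB2. At the other limit the outermost base of the E-box lay 100 bp from the summit at CPNE3, JPT2 and STK40 and 101 bp at FADD, PTBP1 and a long non-coding RNA, which were left out.

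Clock genes with an E-box member all had a shCNT BMAL1 peak. Of 27 clock genes, 18 had a promoter region in some list and 6 of these had an E-box member (33.3%, interval 16.3 to 56.3%), whereas 382 of 4208 genes with a promoter region did (9.08%). With the BMAL1 antibody all 6 were called in shCNT and 4 in shBMAL1, and with the HIF2α antibody 1 and 2. Over all 267 members the shares in these lists were 55.1%, 39.3%, 31.1% and 33.3%, and no test set the clock genes against them. Beside PER1, TEF and DBP these were PER3, NR1D2 and CIART. PER3 had a pileup of 10 at percentile 80.9 in shCNT BMAL1 and no other peak. The region 731 bp from the NR1D2 start, which encodes the repressor REV-ERBβ, had 12 in shCNT BMAL1 and 4 in shBMAL1 HIF2α. The latter peak spans neither E-box of the pair there. CIART, which encodes a repressor of the CLOCK and BMAL1 pair, had 6 and 4 in the BMAL1 lists. The other 12 clock genes with a promoter region, among them PER2, CRY1, CRY2, NR1D1, BHLHE40 and BMAL1, had no E-box within 100 bp of the summit there.

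**Figure D5:**
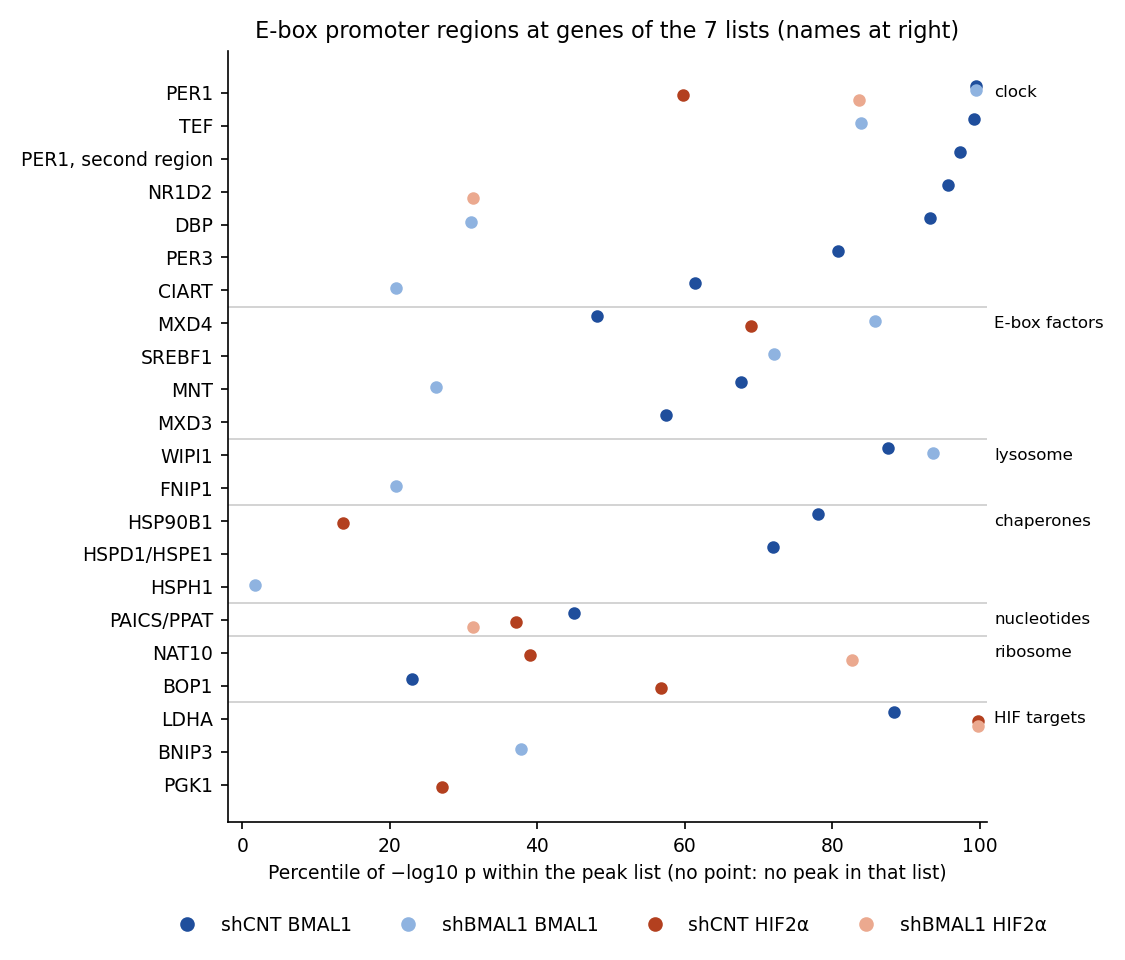
Percentile of −log10 p within each peak list at the E-box promoter regions of genes in the 7 lists. Each row is a region, each colour a peak list, and a missing point means that no peak was called. All 7 clock regions have a shCNT BMAL1 point, against 55.1% of all 267 members. LDHA has its highest points in the HIF2α lists, at percentile 99.8 in both.

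Genes of E-box-binding factors gave 4 members of 16 with a promoter region (25%, interval 10.2 to 49.5%). MXD4, MNT and MXD3, repressors that pair with MAX, had BMAL1 peaks. MXD4 had pileups of 6 and 8 in shCNT and shBMAL1 BMAL1 and 12 in shCNT HIF2α. MNT had 7 and 4 in the BMAL1 lists, the latter in a peak that does not span the E-box, MXD3 had 6 in shCNT BMAL1 alone, and SREBF1, the sterol-responsive factor of lipid synthesis, had 6 in shBMAL1 BMAL1 alone.

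HIF target genes gave 3 members of 25 with a promoter region (12%, interval 4.17 to 30.0%), close to the share over all genes. LDHA, the glycolytic lactate dehydrogenase, stood out with pileups of 52 in shCNT HIF2α and 38 in shBMAL1 HIF2α at percentile 99.8 in each, 9 in shCNT BMAL1 and no peak in shBMAL1 BMAL1. Its pair of E-boxes is separated by 92 bases. BNIP3, a mitophagy receptor, had 4 in shBMAL1 BMAL1 alone. The region counted for PGK1 had 5 in shCNT HIF2α alone and lies at a start shared with ATP7A and the pseudogene C4orf46P2, so it marks an alternative PGK1 start. Strong HIF2α peaks at E-box promoters also occurred outside this list. EIF4A3, an RNA helicase of the exon junction complex, had 43 in shCNT and 22 in shBMAL1 HIF2α and no BMAL1 peak. FGGY, a carbohydrate kinase gene, had 31 and 18, GBE1, the glycogen branching enzyme, had 15 and 8, NOCT, the rhythmic NADPH phosphatase nocturnin, had 14 and 10, and VAPA, an endoplasmic reticulum contact protein, had 11 and 12. Each of these 5 was called in both HIF2α lists. They were picked among members of HIF2α lists only, so the lack of a BMAL1 peak follows from that choice. Scaled by background, the HIF2α log2 difference was −0.03 at EIF4A3, 0.15 at FGGY, 0.03 at GBE1, 0.45 at NOCT and 1.06 at VAPA. At LDHA it was 0.48. Only regions called in both lists give such a value, so its sign carries no direction.

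In the remaining lists the share of genes with an E-box member can be set against 9.08% over all genes with a promoter region. Among chaperone and stress genes 4 of 12 had one (33.3%, interval 13.8 to 60.9%), the same share as in the clock list. HSPD1 and HSPE1, the mitochondrial chaperonins, share 1 promoter with a pileup of 7 in shCNT BMAL1, in a peak that does not span the E-box. HSP90B1 had 8 in shCNT BMAL1 and 5 in shCNT HIF2α, and HSPH1 had 3 in shBMAL1 BMAL1. PPAT and PAICS, which share a promoter and encode enzymes of purine synthesis, had 6 in both shCNT lists and 4 in shBMAL1 HIF2α. The scaled HIF2α log2 difference there was 0.35. Neither HIF2α peak there spans the E-box. These were the 2 members among 7 nucleotide and polyamine synthesis genes with a promoter region (28.6%, interval 8.22 to 64.1%). Of 11 lysosome and autophagy genes 2 were members (18.2%, interval 5.14 to 47.7%). WIPI1, an autophagosome protein, had 10 in shCNT and 13 in shBMAL1 BMAL1 (log2 difference 1.38), the former in a peak that does not span the E-box. FNIP1, a partner of folliculin, had 4 in shBMAL1 BMAL1. Of 10 ribosome biogenesis genes 2 were members (20%, interval 5.67 to 51.0%). They were NAT10, an RNA acetyltransferase with 11 and 10 in the HIF2α lists (scaled log2 difference 0.80), and BOP1 with 5 in shCNT BMAL1 and 8 in shCNT HIF2α. The BOP1 region lay 853 bp from its start and nearer to HSF1.

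BMAL1 and HIF2α peaks coincided at E-box promoters about as often as elsewhere when counted from BMAL1. Of the 147 members in shCNT BMAL1, 39 had a shCNT HIF2α peak (26.5%, interval 20.1 to 34.2%), against 25.6% of all shCNT BMAL1 regions and 29.5% of other promoter regions. In shBMAL1 cells 25 of 105 did (23.8%), against 21.4% of all shBMAL1 BMAL1 regions. Counted from HIF2α, 39 of the 83 members in shCNT HIF2α had a shCNT BMAL1 peak (47.0%), 17.1 points above other promoter regions (interval 6.31 to 28.1). Under shBMAL1 this was 25 of 89 (28.1%), a difference of −1.31 points from other promoter regions (interval −10.0 to 9.12). The control library behind each list is not stated, both lists of 1 shRNA may share it, and its part in these shares was not tested.

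Some members sit in copies of 1 gene family, a set noticed after the values were seen. FAM86 family loci gave 5 members, all with a BMAL1 peak in at least 1 list. The 201 bp windows at FAM86C2P and FAM86GP were 96.5% identical, and the other 9 pairs of the 5 windows were 57.7% to 78.6% identical without gaps. Reads of the FAM86C2P and FAM86GP copies may not be separable, and their pileups of 7 and 5 in shBMAL1 BMAL1 are uncertain. The FAM86GP peak does not span the E-box. A copy beside FAM86HP had 12 in shCNT and 5 in shBMAL1 BMAL1, and one beside FAM86EP had 9 in shCNT BMAL1 alone.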

How the data were processed

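CUT&RUN peak lists of A498 cells, 1 for each BMAL1 and HIF2α group of the labels, were analysed. The authors aligned reads to hg19 (GRCh37), called peaks with MACS2 (2.2.9.1 in the submitters' processing notes) at a p-value limit of 1e-05 and a gap of up to 400 bp, and filtered them with bedtools (2.31.1). Whether libraries were pooled for a list, and which control was used, is not given in the sources used here. In the deposited lists the fold is a linear ratio of pileup to local background, and the p-value is written as −log10; the deposited q-value and score columns were not used. The smallest called pileup was 4 for shCNT and 3 for shBMAL1 with either antibody.

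Pileup was solved from the deposited fold and p-value. Starts came from transcripts tagged basic in GENCODE 44, lifted to GRCh37 (110162 positions). Motifs were counted in 201 bp windows. Named regions were those at genes of 7 lists, the 10 with the highest −log10 p in shCNT BMAL1, the 5 highest in each of 5 list combinations, the 5 with most E-boxes, and 3 on each side of each limit; others are named as such. The members, gene lists and comparisons were chosen with earlier results of these data known. The recovery of pileup, the merging and membership rule, the lists per region and the classes at a list's own summit were tested on simulated data. The intervals were checked against a separate implementation, and the other steps were not tested in this way. Python 3.11.15, numpy 2.4.6, scipy 1.17.1 and pysam 0.24.0 were used. Alternatives changed the distance to a start, the transcripts, the E-box window, the choice of summit, the merging distance and the minimum p-value, length and pileup of the lists.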

Additional observations from a re-analysis of the deposited data

Results flagged for a closer look

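The share of E-box promoter regions in a list differed between the shRNAs with opposite signs for the antibodies. From shCNT to shBMAL1 it changed by −15.7 points in the BMAL1 lists, from 55.1% to 39.3%, and by 2.25 points in the HIF2α lists, from 31.1% to 33.3%. The HIF2α difference is small and changed sign with lists of equal length (35.2% to 28.0%) and with a pileup of at least 5 (31.3% to 27.7%). Over all merged regions the share was 28.3% and 51.3% in the BMAL1 lists and 28.3% and 38.4% in the HIF2α lists. The difference between the antibodies was not tested, since each has 1 list per shRNA.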

How the results depend on the processing

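No paired analysis was possible because each group has 1 peak list, which also left no replicate to leave out. Of 332 values recomputed under 14 alternatives, 308 lay inside the interval given for the main value (for a count, within 1.5 times it), 24 moved outside and 0 reversed. Only a difference whose main interval excluded 0 could count as reversed. Some differences with a main interval that included 0 changed sign. Against other promoters, that of presence in shCNT HIF2α went from −2.20 to 2.46 points with the 200 bp window. That of the kept share of HIF2α members went from −2.64 to 5.93 points at the shCNT summit alone. 4 of the alternatives were chosen after seeing the data. The cause was not tested where the setting does not itself fix it. The number of members was 119 and 480 with windows of 50 and 200 bp (median E-box distance 21 and 88.5 bp) and 175 at a −log10 p of at least 8. The share in shCNT BMAL1 was 62.3% with lists of equal length and 62.9% with a pileup of at least 5. The share in shBMAL1 BMAL1 was 32.8% with the 50 bp window, 28.0% with equal lengths, 31.3% with the pileup limit and 32.2% with the E-box required at each list's own summit, which also gave 24.7% and 27.0% for HIF2α in shCNT and shBMAL1. The latter was 26.9% at the stricter p and 27.7% with the pileup limit. The kept share of BMAL1 members was 24.5% with equal lengths and 18.5% at own summits. Among peaks whose scaled pileup reached the smallest one called in shBMAL1 it was 42.6%, and that of HIF2α members was 67.2%. The share of shCNT BMAL1 members with HIF2α was 18.3% at the stricter p and 20% at own summits. Against other promoters, the difference in shBMAL1 BMAL1 was −18.0 points with the 50 bp window, and that in shCNT HIF2α was −8.04 at the stricter p and −9.05 with the pileup limit. From distal E-box regions, intervals excluded 0 for shBMAL1 HIF2α at the stricter p (−11.8 points, −21.9 to −1.47) and at own summits (−8.30, −16.3 to −0.256), and for shCNT HIF2α with the 200 bp window (7.91, 1.81 to 13.9). Over their alternatives the differences from other promoters ran from 17.2 to 24.2 points for presence in shCNT BMAL1 and from −24.9 to −15.1 for the kept share of BMAL1 members, each with an interval that excluded 0 in all 11 and 13 alternatives that gave a value. Low pileups near 3 or 4 fragments limit the weaker members.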
